A study of Drosophila melanogaster with 10 samples.

Results

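Whole larvae and eye-antenna disc cells of Drosophila melanogaster were labelled control, Jarid2 mutant or, in larvae only, E(z) RNAi. The anterior Hox genes pb, Dfd, Scr and Antp were followed through them. The members were taken as every probe set that the platform annotation assigned to exactly 1 of these symbols, which gave 6 of the 18769 probe sets tested, or 4 of 11982 genes. pb (1624703_at), Dfd (1633869_at) and Scr (1633345_at) had 1 probe set each. Antp had 3, which are named here by their mean signal as the brightest (1640208_s_at), the second (1624759_s_at) and the dim (1638665_at) probe set. They share a target gene and are not replicates of each other, and the sources do not say where in the transcript their probes lie. The suffix _s_at marks probe sets whose probes match more than a single transcript.

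RNA was hybridised to 10 single-colour Affymetrix arrays in 5 groups of 2. The larval groups were animals of the third instar raised at 25 °C, 20 per sample: wild-type controls, larvae of the Minos insertion line Jarid2MB00996/TM3, in which TM3 is a balancer chromosome, and larvae labelled E(z) RNAi, for which a UAS-E(z)-RNAi transgene is named. The sources leave unstated whether the Jarid2 animals carried the insertion on both chromosomes, which driver was used with the UAS transgene, and the sex and exact age of the larvae. The genotype field of the arrays labelled E(z) RNAi reads wild type. The disc groups were wild-type controls and the same Jarid2 line, each sample from about 500 eye-antenna discs from the end of the third instar that were dissociated and sorted by GFP fluorescence, with the retained fraction unstated. Each p-value rests on the spread between the 2 samples of a group, pooled over all 5 groups and both tissues. Independent animals or cultures are not recorded for the replicates, so that spread may be technical.

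Hox genes encode homeodomain transcription factors that give segments along the head-to-tail axis their identity, and in the fly those of the head and anterior thorax lie together in the Antennapedia complex on chromosome arm 3R. Polycomb group proteins keep each Hox gene silent outside its own domain, through the histone methyltransferase complex PRC2 that contains E(z) and with which Jarid2 associates, while trithorax group proteins keep it active inside. Proboscipedia (pb) acts in the mouthparts, Deformed (Dfd) in the mandibular and maxillary head segments and in the eye-antenna disc, Sex combs reduced (Scr) in the labial segment and the prothorax, and Antennapedia (Antp) in the thorax. Antp is best known from flies in which its expression in the antennal disc turns antennae into legs. The title of the series separates functions of Jarid2 that need PRC2 from those that do not.

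Levels are the deposited log2 values, in which a difference of 1 is a doubling, and SEs and adjusted p-values come from limma with Benjamini-Hochberg adjustment over all 18769 probe sets, n = 2 arrays per group. A probe set was described as dim in an array when it lay below that array's lower quartile, which ran from 5.06 to 5.27 over the larval arrays and from 4.18 to 4.27 over the disc arrays. Medians ran from 7.38 to 7.52 over the larval arrays and from 5.54 to 5.61 over the disc arrays. Upper quartiles spanned 9.41 to 9.49. Over all probe sets the median residual SD was 0.160 for larvae and 0.0978 for discs, and the number of arrays limits every comparison. Jarid2 itself followed its labels, at 9.48 and above in larval controls against 4.26 and below in mutant larvae, and at 10.10 and above in control discs against 7.64 and 6.80 in mutant discs. E(z) went against its label: the arrays labelled E(z) RNAi read 9.25 and 9.56, above the larval controls at 8.53 and 8.31 (adjusted p = 0.0139, and 0.078 when larvae were fitted alone, 0.0684 leaving out larval control 2 and 0.067 leaving out labelled array 2). Directions given for those arrays are therefore not directions under a measured loss of E(z).

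Dfd was the member that read higher in eye-antenna disc cells than in larvae. It read 9.87 and 9.54 in control disc cells and 9.95 and 9.40 in Jarid2 mutant disc cells, against 6.23 and 5.48 in control larvae, 6.37 and 6.38 in Jarid2 mutant larvae and 6.18 and 6.28 in larvae labelled E(z) RNAi. All 4 disc arrays lay above all 6 larval arrays. Within the disc arrays the level exceeded that of 74.6% to 79.7% of probe sets, and within the larval arrays that of 30.1% to 39.7%. Between control discs and control larvae the difference was 3.85 ± 0.26, or 14.5-fold (adjusted p = 6.91e-06).

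Antp had the opposite distribution. Its brightest probe set read 8.71 and 8.08 in control larvae, 7.75 and 7.66 in Jarid2 mutant larvae and 7.93 and 7.92 in larvae labelled E(z) RNAi, but 4.59 and 4.97 in control disc cells and 3.68 and 3.97 in Jarid2 mutant disc cells. Its second probe set read 7.91 and 7.61, 7.30 and 7.57, and 7.69 and 7.58 in the same larval groups, and 4.22 and 4.45 in control disc cells and 3.20 and 2.98 in mutant disc cells. With both, every larval array lay above every disc array, and the mutant disc arrays were the lowest of the series. Control discs were below control larvae by -3.61 ± 0.22 with the brightest (adjusted p = 3.51e-06) and by -3.42 ± 0.16 with the second (adjusted p = 8.15e-07). The dim probe set, at 3.58 to 3.96 over all 10 arrays, was below the lower quartile in each of them and showed no such pattern (control discs minus control larvae -0.26 ± 0.11, adjusted p = 0.072). Over the 10 arrays the brightest and second probe sets correlated at r = 0.993, which mostly records the tissues, and over the 6 larval arrays at r = 0.809.

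Scr read at a middle level in every group and varied more between replicates than the other members. It read 7.87 and 7.19 in control larvae, 7.18 and 7.84 in Jarid2 mutant larvae and 8.17 and 8.04 in larvae labelled E(z) RNAi. It read 7.52 and 6.66 in control disc cells and 6.98 and 5.92 in Jarid2 mutant disc cells. Control discs and control larvae overlapped, and the discs differed from the larvae by -0.44 ± 0.43 (95% interval -1.44 to 0.56, adjusted p = 0.388). Both mutant disc arrays lay below every larval array as deposited. By rank they did not: Scr exceeded 59.7% and 53.4% of probe sets in the mutant disc arrays and 46.5% to 57.6% in the larval arrays. Its residual SD was 0.391 for larvae and 0.683 for discs.

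pb was dim in every one of the 10 arrays, at 4.02 to 4.47 in larvae and 3.59 to 3.83 in discs, and exceeded only 9.5% to 16.1% of the probe sets of its array. Control discs read below control larvae by -0.35 ± 0.12 (adjusted p = 0.0255). Leaving out the first (adjusted p = 0.133) or second control disc array (0.0526), or larval control 2 (0.130), ended the call, and the lower quartile of all probe sets was lower in discs as well.

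**Figure D1:**
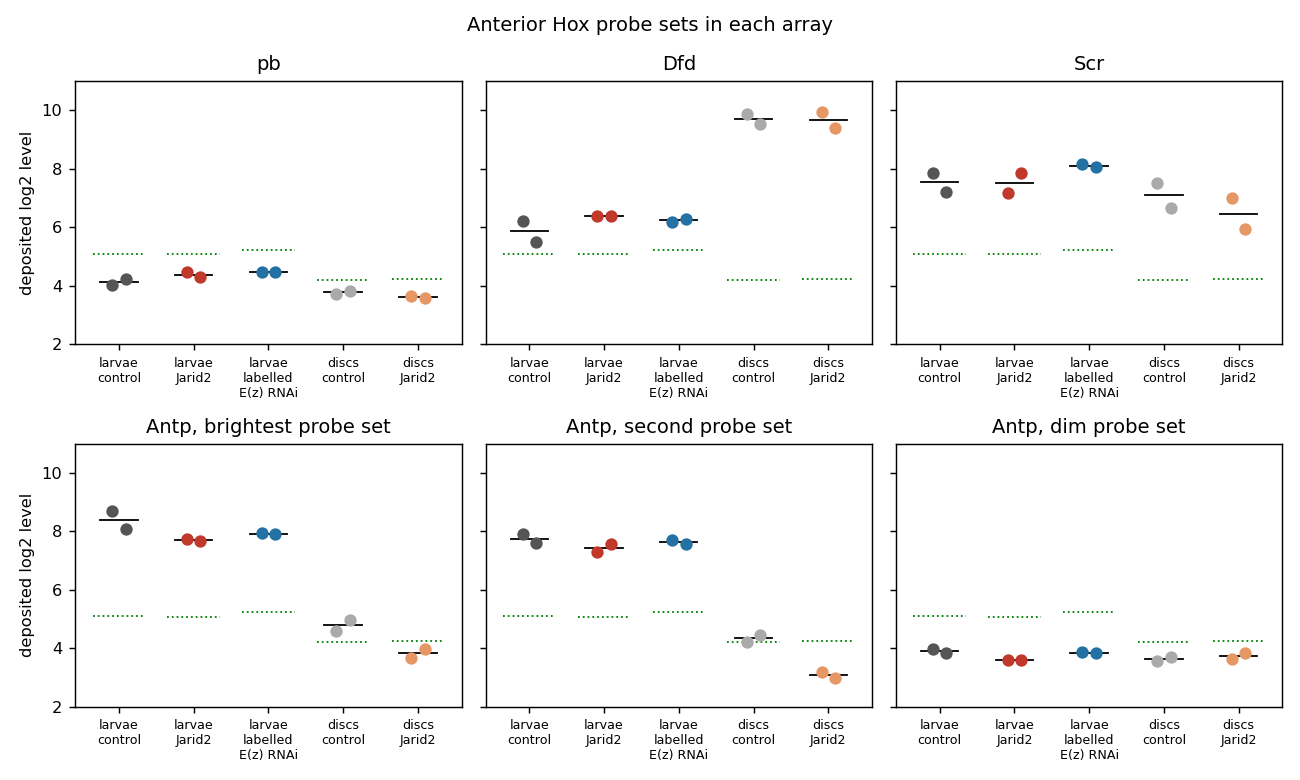
Deposited log2 level (vertical axis) of the 6 anterior Hox probe sets in each of the 10 arrays, by group. Points are arrays, black bars are the means of 2 arrays and green dotted lines are the mean lower quartile of all probe sets in the group; Dfd is high in the disc arrays, the brightest and second Antp probe sets are high in the larval arrays, and pb and the dim Antp probe set lie below the dotted line throughout.

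The tissue comparison has to be read against its background, because 72.0% of all probe sets were called between control discs and control larvae, 28.4% of them higher in discs and 43.6% lower as shares of all tested. Of the 6 Hox probe sets 1 was called higher and 3 lower, and 5 of 6 did not overlap between the groups, against 87.8% of all probe sets. The median difference over all probe sets was -0.23, relative to which Dfd stood at 4.08, the brightest Antp probe set at -3.39, the second at -3.20, Scr at -0.21 and pb at -0.13. After quantile normalization of all arrays that median was 0.44, and after median centring it was 1.66. Dfd stayed higher in discs under these scalings (4.32 and 5.74), and Antp stayed lower with the brightest (-2.31 and -1.73) and the second probe set (-2.04 and -1.54). The differences of pb (0.22 and 1.53), Scr (0.98 and 1.45) and the dim Antp probe set (0.24 and 1.63) turned positive, so no direction is given for these. In bulk samples like these, fewer cells that express a gene and less RNA per cell cannot be told apart.

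**Figure D2:**
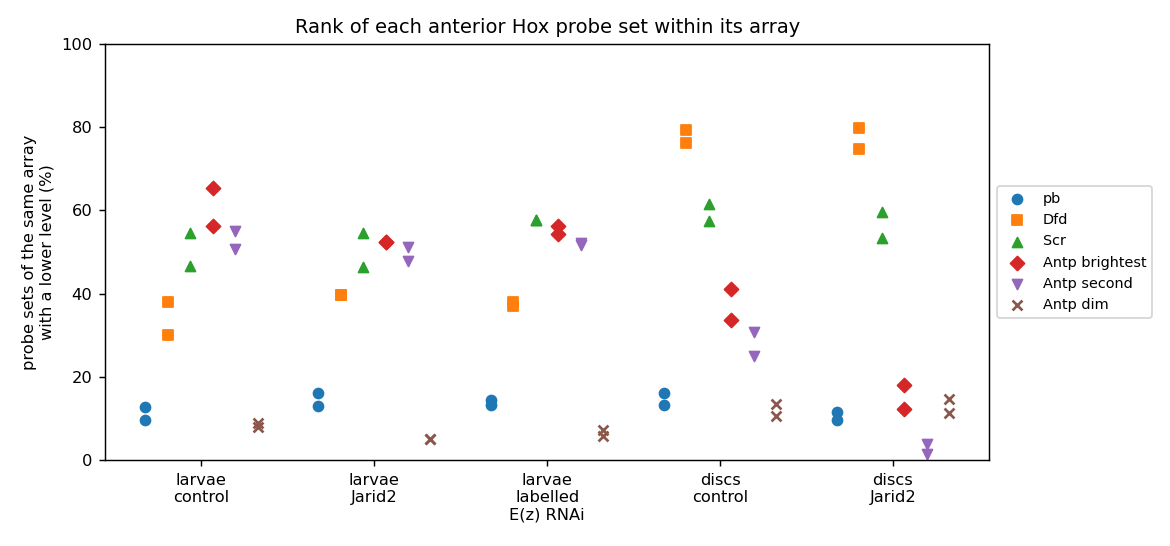
Share of the probe sets of the same array that read lower than each anterior Hox probe set (vertical axis, %), by group; each symbol is an array. Dfd ranks at 74.6% to 79.7% in discs and 30.1% to 39.7% in larvae, whereas the brightest Antp probe set ranks at 52.3% to 65.4% in larvae and 12.3% to 41.1% in discs.

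The defining genes of the discs moved with that difference. All 8 eye-antennal disc markers, among them the retinal determination genes ey and so, were called higher in control discs than in control larvae (median 3.51), as were all 7 measured antennal identity genes (median 3.14), which include Dll, needed for distal appendages, and ss, a bHLH-PAS factor of the distal antenna. Of the 4 thoracic disc markers 3 were called lower (median -1.77): the wing gene vg at -1.43 ± 0.16, nub at -2.12 ± 0.25 and ap at -2.66 ± 0.27. The fourth, tup, was at 0.68 ± 0.33 and not called (adjusted p = 0.0952). Under quantile normalization of all arrays 1 of these 4 was called higher and 2 lower, and under median centring 2 and 1, so the direction of the list depends on the scaling. Tissues that whole larvae hold beside the discs differed more. Of 7 muscle markers 6 were called lower in control discs and 1 higher (median -7.43), and 5 of 5 fat body markers were called lower (median -9.42), under each scaling tried. Levels of each list were also summed on the linear scale and put in log2, which weights the brightest markers most. In control larvae these sums were 13.47 and 14.21 for muscle and 16.74 and 16.75 for fat body. In control discs they were 9.53 and 9.06 for muscle and 7.16 and 7.26 for fat body. Of 15 haemocyte markers 11 were called higher in discs and 1 lower (median 1.39), and of 8 neuron markers 3 higher and 4 lower (median -0.51, which turned to 1.01 and 1.38 under quantile normalization of all arrays and median centring). Whether the makeup of the tissues accounts for the levels of Dfd and Antp was not tested.

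In Jarid2 mutant disc cells, Antp was the member with a called difference from control disc cells. Its second probe set fell by 1.25 on the log2 scale, with an SE of 0.16 (95% interval of the difference -1.61 to -0.88, adjusted p = 0.00519). This took it from just at the lower quartile of the control arrays, where it exceeded 25.0% and 30.9% of probe sets, to the bottom of the mutant arrays, at 3.8% and 1.3%. The brightest probe set differed by -0.95 ± 0.22 without passing the test (adjusted p = 0.0773), and ranked at 33.7% and 41.1% in controls against 12.3% and 17.9% in mutants. The dim probe set differed by 0.09 ± 0.11 (adjusted p = 0.885). The mean of the brightest and second probe sets, an alternative chosen after seeing the data, gave -1.10 (adjusted p = 0.0126).

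Of the 6 Hox probe sets 1 was thus called in mutant discs, where 2.61% of all probe sets were called and 2.09% were called lower. Of the 6, 3 did not overlap between the groups, pb and the 2 brighter Antp probe sets, against 52.6% of all probe sets. The call of the second Antp probe set was also made in a fit of the disc arrays alone (adjusted p = 0.0196), but it was lost without the second control disc array (-1.13, adjusted p = 0.0531) and without the second mutant disc array (-1.14, adjusted p = 0.0576). Since both mutant arrays lay below their lower quartiles, that they read above background was not shown, and the value is a difference of signal with no fold of the transcript given.

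The other members gave no called difference in the mutant discs. Dfd differed by -0.03 ± 0.26, with an interval of -0.65 to 0.58 (adjusted p = 0.998), at a level above 74.6% or more of probe sets in all 4 disc arrays. Scr differed by -0.64 ± 0.43, with an interval of -1.64 to 0.36 (adjusted p = 0.621). The 2 control arrays of Scr lay 0.86 apart and the 2 mutant arrays 1.07 apart, which is more than the difference between the groups. pb differed by -0.15 ± 0.12, with an interval of -0.42 to 0.12 (adjusted p = 0.688).

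Haemocyte genes moved far more than Antp in the same arrays. Of 15 haemocyte markers 11 were called lower, such as the surface gene He and the GATA factor gene srp, with a median of -5.01 where the median of all probe sets was 0.06. The summed level of the list, on the log2 scale, was 14.67 and 15.75 in control discs and 11.91 and 11.98 in mutant discs, and 0 of 15 markers were below the lower quartile in each control disc array and 1 in each mutant disc array. The glial and haemocyte factor gene gcm was called higher by 1.15 ± 0.18, a call lost when any 1 of the 4 disc arrays was left out (adjusted p = 0.0600 to 0.135). The summed level of the 8 eye-antennal disc markers was 14.46 and 14.50 in controls and 14.95 and 15.06 in mutants, with so higher by 0.83 ± 0.10 and the proneural gene ato by 0.86 ± 0.15. Without the second mutant disc array so was not called (adjusted p = 0.057). The call of ato was lost without that array (adjusted p = 0.162), without either control disc array (0.134 and 0.145) and in a fit of the discs alone (0.0626). The 4 thoracic disc markers summed to 8.63 and 8.33 against 8.63 and 8.12, and the 8 neuron markers to 11.54 and 11.66 against 11.36 and 10.97. Whether the lower haemocyte signal had a part in the lower Antp signal was not tested.

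**Figure D3:**
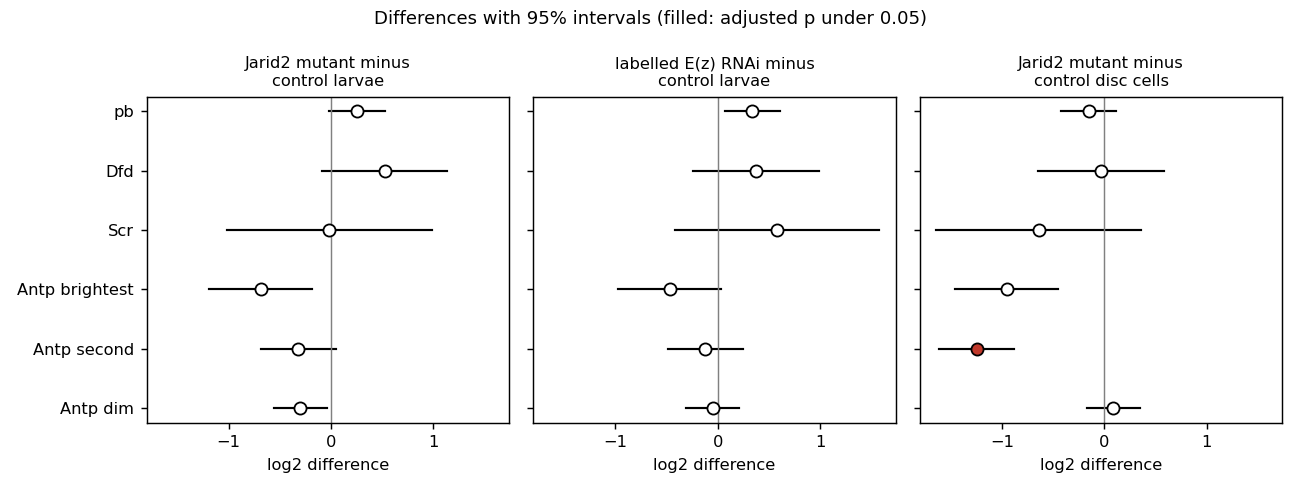
Log2 difference (horizontal axis) of each anterior Hox probe set in 3 comparisons, 2 arrays per group; points are limma estimates, lines are 95% intervals and a filled point marks an adjusted p under 0.05. The second Antp probe set in disc cells, at -1.25, is the filled point.

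In Jarid2 mutant larvae none of the 6 Hox probe sets was called, where 2.40% of all probe sets were called. By limma 2 of the 6 had an unadjusted p under 0.05, against 11.6% of all probe sets, both of Antp: the brightest at -0.69 ± 0.22, with an interval of -1.19 to -0.18 (adjusted p = 0.222), and the dim at -0.30 ± 0.11 (adjusted p = 0.333). The second Antp probe set differed by -0.32 ± 0.16 (adjusted p = 0.529), and with each of the 3 both mutant arrays lay below both controls. Dfd differed by 0.52 ± 0.26 (interval -0.09 to 1.14, adjusted p = 0.536), where the control arrays lay 0.74 apart and the mutant arrays 0.01 apart. pb differed by 0.25 ± 0.12 (adjusted p = 0.471) and Scr by -0.02 ± 0.43, with an interval of -1.02 to 0.98 (adjusted p = 0.995). In all, 5 of the 6 probe sets did not overlap between the groups, against 35.9% of all probe sets, but 3 of these 5 share the gene Antp.

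The interaction term asked whether the Jarid2 difference was the same in discs as in larvae. The signal of Jarid2 itself did not fall equally, by -5.33 in mutant larvae and -2.90 in mutant discs. Its own interaction, at 2.43, was called, a call lost in 1 of 18 alternatives. None of the 6 Hox probe sets was called, against 2.89% of all probe sets, and 3 had an unadjusted p under 0.05, against 12.4%. The second Antp probe set came nearest, at -0.93 ± 0.22 (interval -1.45 to -0.41, adjusted p = 0.0909). The brightest was at -0.27 ± 0.31, with an interval of -0.98 to 0.45 (adjusted p = 0.835). A fall of Antp particular to the discs was therefore not shown, although a call was made in discs and none in larvae.

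The same control larvae served for the larvae labelled E(z) RNAi. None of the 6 Hox probe sets was called, where 4.10% of all probe sets were, and 1 of 6 had an unadjusted p under 0.05, near the 21.2% of all probe sets. This was pb, at 0.34 ± 0.12 with an interval of 0.07 to 0.61 (adjusted p = 0.152). Scr differed by 0.58 ± 0.43 (interval -0.42 to 1.58, adjusted p = 0.462), with both labelled arrays above both controls. Dfd differed by 0.37 ± 0.26 (adjusted p = 0.442). The Antp probe sets were at -0.47 ± 0.22 for the brightest (adjusted p = 0.269), -0.12 ± 0.16 for the second (adjusted p = 0.681) and -0.05 ± 0.11 for the dim one (adjusted p = 0.817). The groups did not overlap in 3 of 6 probe sets, against 46.6% of all probe sets.

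Set directly against larvae labelled E(z) RNAi, Jarid2 mutant larvae gave 0 called Hox probe sets and 0 with an unadjusted p under 0.05 by limma, where 6.11% of all probe sets were called and 21.4% had such an unadjusted p. Scr was at -0.60 ± 0.43 (interval -1.60 to 0.41, adjusted p = 0.499) and Dfd at 0.15 ± 0.26 (interval -0.46 to 0.76, adjusted p = 0.813). The brightest Antp probe set was at -0.22 ± 0.22, with an interval of -0.73 to 0.28 (adjusted p = 0.642), and pb at -0.08 ± 0.12 (adjusted p = 0.754). The groups did not overlap in 5 of 6 probe sets, against 48.6% of all probe sets.

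The neighbours of these genes in the Antennapedia complex were read from a list of 13, of which 8 had a probe set of their own. In order along the arm they and the members run Ccp84Ag, Ccp84Ae and Ccp84Ac, which encode larval cuticle proteins, then pb, zen2, zen and bcd, the last the maternal head determinant, then Ama, Dfd, Scr, the pair-rule gene ftz and Antp. None of the 8 was called in Jarid2 mutant larvae, in larvae labelled E(z) RNAi, in mutant discs or in the interaction. Their medians were -0.15, 0.10, 0.06 and 0.09, where the medians of all probe sets were 0.01, 0.06, 0.06 and 0.06. Over all probe sets 2.40%, 4.10%, 2.61% and 2.89% were called. In each array 2 to 4 of the 8 lay below the lower quartile, so 0 calls does not show that they were unchanged. Between control discs and control larvae 5 of the 8 were called lower as deposited, but after median centring 7 were called higher, so no direction is given. The adhesion gene Ama, beside Dfd in this order, read a mean of 13.16 in control discs and 12.38 in mutant discs, -0.77 ± 0.18 apart and not called (adjusted p = 0.0927). ftz, between Scr and Antp, was at -0.24 ± 0.21 in mutant discs (adjusted p = 0.756). The complex also holds lab, which was not analysed here. The posterior Hox genes of the bithorax complex were likewise not analysed here.

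**Figure D4:**
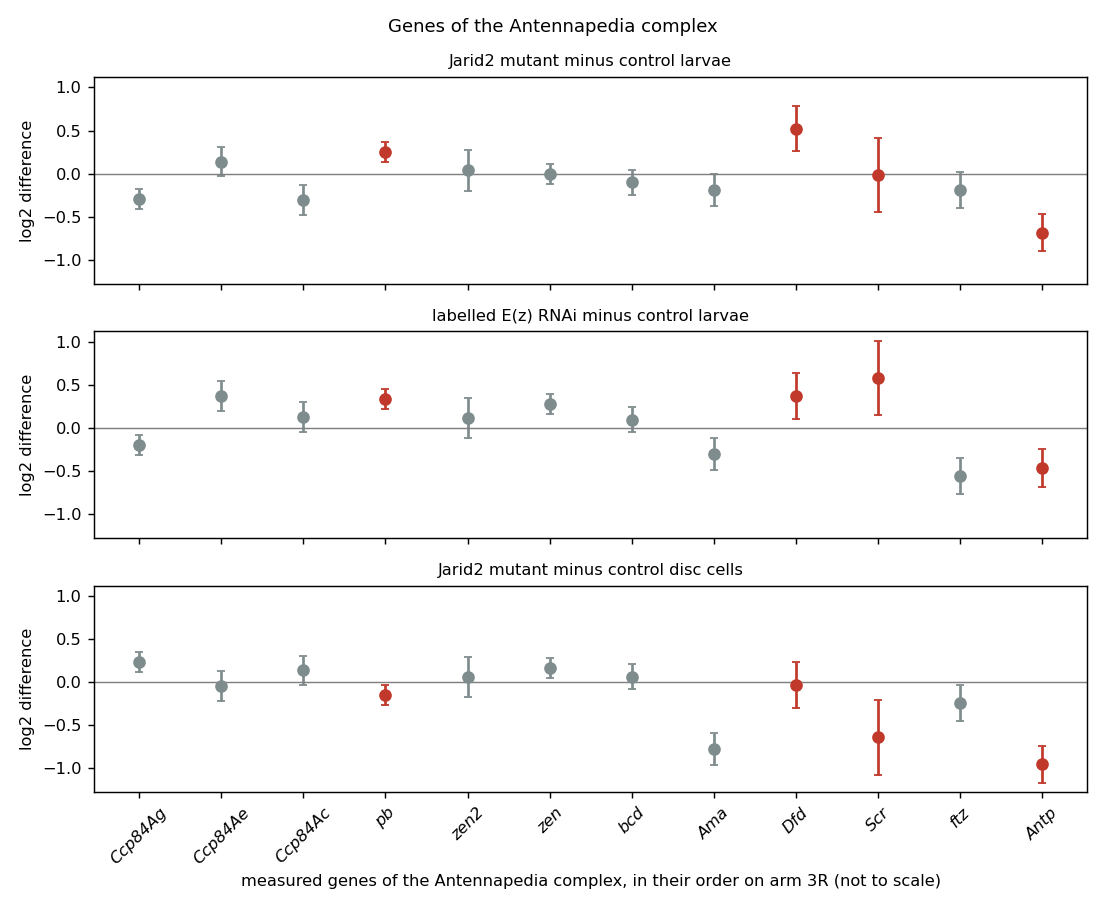
Log2 difference ± SE (vertical axis) of the measured genes of the Antennapedia complex in 3 comparisons, in their order on arm 3R and not to scale; members are red, other genes grey, and each gene is shown by its brightest probe set. In mutant disc cells the lowest values are those of Antp (-0.95), Ama (-0.77) and Scr (-0.64), none of them called with these probe sets.

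Regulators and partners of the Hox genes were counted in mutant larvae, larvae labelled E(z) RNAi and mutant discs. Over all probe sets 2.40%, 4.10% and 2.61% were called in these 3 comparisons. At such shares short lists hold few calls or none, so a lack of calls does not show that these genes were unchanged. Of 15 measured Polycomb group genes, Jarid2 itself was the called gene in mutant larvae and in mutant discs, and E(z) in the arrays labelled for it, and the other 14 were not called in each case. Of 12 trithorax group genes 0 were called in these 3 comparisons, with medians of 0.04, 0.10 and -0.04. In control discs 13 of the 15 Polycomb and 12 of the 12 trithorax group genes were called higher than in control larvae and 0 lower, with medians of 1.36 and 1.41, and all the scalings tried kept these lists higher. Of 6 listed cofactors and partners 4 were measured, the zinc finger genes tsh, tio, disco and disco-r, and 0 of these were called in the same 3 comparisons. The Hox cofactor genes exd and hth had no probe set of their own, so they were not tested. tsh, which acts with Hox proteins in the trunk, was lower in Jarid2 mutant larvae than in larvae labelled E(z) RNAi by -0.66 ± 0.15 (adjusted p = 0.0482, and 0.135 when larvae were fitted alone). That call was lost in 16 of 19 alternatives. Among them were quantile normalization of all arrays (adjusted p = 0.0671) or within tissues (0.0502) and median centring (0.0808). In control discs 3 of the 4 were called higher than in control larvae, where 28.4% of all probe sets were called higher. The other, at -0.21, was not called. Highest were disco (3.19 ± 0.19) and disco-r (2.94 ± 0.25), which act with Dfd in the gnathal segments of the embryo.

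The genes known to respond to anterior Hox proteins in the embryo were few, with 5 measured. Of these 0 were called in mutant larvae (median -0.11), in larvae labelled E(z) RNAi (0.11) and in mutant discs (0.10). Over all probe sets 2.40%, 4.10% and 2.61% were called there, so 0 of 5 does not show that these genes were unchanged. In the tissue comparison, where 72.0% of all probe sets were called, 2 were called higher and 3 lower in discs. Of these fkh and sage, which Scr activates in the embryonic salivary gland, were lower in control discs by -4.05 ± 0.28 and -4.40 ± 0.10, and the 6 salivary gland markers were called lower as well (median -9.29). eyg was higher in discs by 2.07 ± 0.23 and salm, which ectopic Antp represses in the antennal disc, by 1.93 ± 0.24.

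Of the 7 antennal identity genes, the nuclear factor gene dan was the called one in each of the 3 comparisons. It was higher by 0.71 ± 0.13 in Jarid2 mutant larvae (adjusted p = 0.0367), by 0.97 ± 0.13 in larvae labelled E(z) RNAi (adjusted p = 0.0101) and by 0.72 ± 0.13 in mutant discs (adjusted p = 0.0331), from means of 6.22 in control larvae and 11.52 in control discs. The larval comparisons share their control arrays. When a single tissue was fitted all 3 calls were lost, with adjusted p = 0.142, 0.0631 and 0.0583. The list medians were 0.11, 0.11 and -0.02.

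Markers of other larval tissues were also counted in the mutant and labelled samples, where 2.40% to 4.10% of all probe sets were called. In Jarid2 mutant larvae 0 of 7 muscle, 0 of 5 fat body, 0 of 8 neuron and 0 of 6 salivary gland markers were called, and 1 of 15 haemocyte markers was called lower, the receptor gene NimC1, at -1.52 ± 0.29 (adjusted p = 0.0392). That call was lost in 12 of 20 alternatives, among them leaving out any 1 of the 6 larval arrays or either mutant disc array (adjusted p up to 0.222 with an array left out). In larvae labelled E(z) RNAi the muscle markers had a median of 0.80 with 0 of 7 called. The log2 of their summed level was 14.15 and 15.12, against 13.47 and 14.21 in controls. In the same labelled larvae 1 of 5 fat body markers and 1 of 15 haemocyte markers were called lower. The latter was again NimC1, whose call was lost in 11 of 20 alternatives. In mutant discs 0 markers of muscle, fat body, neurons or salivary glands were called. In each disc array 3 or 4 of 7 muscle, 1 or 2 of 5 fat body and 1 to 3 of 6 salivary gland markers lay below the lower quartile. A fall of markers that dim could hardly be seen. The part of these tissues in the Hox values was not tested.

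The genes whose profile over the 10 arrays came closest to each member were found by the root mean square difference of log2 values after each gene's own mean was taken off, over 11981 other genes with 1 probe set each. For Dfd these were kuz (0.278), a metalloprotease gene of Notch signalling, rst (0.305), an adhesion gene of the pupal eye, and neur (0.305), a ubiquitin ligase gene of Notch signalling, where the median gene was at 1.90. For Antp, by its brightest probe set, they were the serpin gene Spn88Eb (0.194), CG9192 (0.272) and the lipid droplet gene Jabba (0.276), where the median was 1.77. For Scr they were the GATA factor gene grn (0.244), CG32369 (0.281) and fog (0.300), and for pb CG9747 (0.0844), VhaSFD (0.0859) and Vha55 (0.0918). The median gene was at 0.705 from pb and 0.914 from Scr. Among the members themselves pb and Scr were closest, at 0.499, and Dfd and Antp farthest apart, at 3.59. The SDs over the 10 arrays were 0.355 for pb, 0.700 for Scr, 1.85 for Dfd and 1.96 for Antp. Genes that vary little lie close by this measure, so the distance of pb and Scr does not show a shared profile. The arrays fall into the larval and disc tissues, so the likenesses of Dfd and Antp mostly record which tissue a gene is higher in. No tissue direction is given for pb and Scr, so their likenesses are not read this way.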

How the data were processed

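Expression was measured on 10 Affymetrix arrays, from 200.0 ng of RNA each per the labels. The authors deposited log2 values per probe set, judged by their range, and limma 3.4.3 is listed in the submitters' processing notes. Their background correction, normalization and summary are unstated. All value columns matched a sample, leaving 0 unmatched. Of 18952 probe sets, 183 array controls were left out. Genes were named from the 13647 probe sets with 1 symbol.

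A means model of the 5 groups was fitted with limma 3.58.1 (lmFit, eBayes) in R 4.3.3, leaving 5 residual and 2.78 prior degrees of freedom. Tests were two-sided and called at an adjusted p under 0.05. The code was tested on simulated data. Where these had the spread of each tissue's arrays, the share of false calls exceeded the threshold, in larvae more than in discs, so the calls and the shares called over all probe sets are likely too many. In lists, a gene with several probe sets was represented by that with the highest mean. Every member probe set was named, with Jarid2, E(z), up to 4 called members of each list with the smallest p, and 3 most alike genes per member. Other genes named beside a list's count were chosen after their values were seen. The members, 13 gene lists and alternatives were chosen with earlier results of these data known. Figures were drawn with matplotlib 3.10.9.

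The alternatives changed the scaling (quantile over everything or per tissue, medians), left out the dimmest 30%, restricted the fit to a tissue or to the groups compared, used a trended robust prior, array weights, a block for replicate number or gene means over probe sets, and dropped each array in turn.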

Additional observations from a re-analysis of the deposited data

How the results depend on the processing

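Of 702 values of the Hox probe sets under alternatives, 672 kept their direction and their side of the threshold. Of 120 counts of called Hox probe sets, 115 stayed within 1.5 times; in mutant discs the count was 1, but 2 with array weights and between 0 and 2 when an array was left out, where a lone array is assumed to vary like the other groups. Array weights and the gene mean called the brightest Antp probe set or Antp there (adjusted p = 0.0138 and 0.0428). For the larval comparisons and the interaction the counts of called Hox probe sets set 0 against 0, which shows no stability. Between tissues median centring called all 6, against 4 in the main fit. It turned pb, Scr and the dim Antp probe set and called them higher (adjusted p = 2.59e-06, 0.00795 and 2.3e-06). Between tissues, quantile normalization of all arrays turned pb to 0.22, Scr to 0.98 and the dim Antp probe set to 0.24, and median centring turned them to 1.53, 1.45 and 1.63; the pb call was also lost when the 2 groups were fitted alone (adjusted p = 0.0672), without the second larval control (0.130) or without either disc control (0.133 and 0.0526). Of differences that were never called, pb between Jarid2 and labelled E(z) RNAi larvae turned to 0.0386 and 0.0466 under quantile normalization of all arrays and within tissues, and Dfd in discs to 0.0270 under median centring. With an array left out, the ranges that crossed 0 were -0.36 to 0.32 for Scr in Jarid2 larvae, -0.27 to 0.0305 and -0.11 to 0.0140 for the second and dim Antp probe sets in labelled E(z) RNAi larvae, -0.31 to 0.24 for Dfd and -0.0173 to 0.19 for dim Antp in mutant discs, -0.58 to 0.0461 for brightest Antp in the interaction, and -0.18 to 0.0133 for pb between the mutant and labelled larvae. The cause was not tested.

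Counts over all probe sets were less stable. Fits of larvae alone called 154 in place of 451 for Jarid2, 169 in place of 769 for labelled E(z) RNAi and 252 in place of 1146 between these; fits of the compared groups alone called 112, 2 and 185. With array weights they were 288, 199 and 757, and in discs 1332 in place of 490. For labelled E(z) RNAi and the direct comparison they were 432 and 645 after quantile normalization of all arrays, 493 and 746 after median centring, 409 and 628 without the dimmest 30%, and 413 and 627 over genes. With each array left out in turn the counts ranged from 166 to 446 for Jarid2 larvae, 273 to 641 for labelled E(z) RNAi, 244 to 519 for discs, 293 to 533 for the interaction (542 with all arrays) and 294 to 1280 for the direct comparison, so the shares called over all probe sets beside the Hox counts move as much. The lowest came without Jarid2 larval array 1 (166, 293 and 294), larval control 2 (273) and mutant disc array 2 (244). The disc count was 276 without control disc array 2 and 290 without mutant disc array 1.

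The replicate numbers share only a number: deviations of same-numbered arrays correlated at -0.42 and -0.21 between larval controls and the Jarid2 and labelled E(z) RNAi larvae, and at 0.09 between the disc groups. With the replicate number as a block the counts of called Hox probe sets were 0, 0, 1, 0, 0 and 4, as without it, and all probe sets called were 332 for Jarid2 larvae, 401 for discs and 509 for the arrays labelled E(z) RNAi. With the control numbers crossed, chosen after seeing the data, they were 393 and 609 in larvae.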
